A study of Mus musculus with 8 samples.

Results

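The genes described are 10 genes of major histocompatibility complex (MHC) class I presentation and the immunoproteasome: H2-K1, H2-D1, B2m, Tap1, Tap2, Tapbp, Psmb8, Psmb9, Psmb10 and Nlrc5. They were given by name and taken as the rows whose Ensembl identifiers carry these symbols in GENCODE, 10 of 51826 genes in the count table. Gene expression was measured by RNA sequencing in total splenocytes of 8 mice of the BALB/c strain, aged 3 months, 4 in the control group and 4 in the group dosed daily by mouth with all-trans-retinoic acid (tRA), the active metabolite of vitamin A. Dosing began at weaning, the tRA dose was 1 mg/kg body weight, and no mouse received pristane, the oil used elsewhere in the study to induce lupus. A figure legend of the study gives the control mice vehicle in place of tRA, whereas the treatment field of the labels names the 1 mg/kg tRA dose for all 8 mice; the groups follow the sample titles. Counts on genes totaled between 30919272 and 37539631 per control mouse and between 31810417 and 35165876 per tRA mouse.

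Nearly all cells display fragments of their own proteins on MHC class I molecules, which CD8 T cells and natural killer cells inspect. The proteasome cuts the proteins, and in lymphoid cells and under interferon gamma the immunoproteasome subunits replace the constitutive catalytic subunits and change which peptides are made. The transporter carries the peptides into the endoplasmic reticulum, where a loading complex fits them to a heavy chain paired with beta-2 microglobulin, and the regulator NLRC5 drives the transcription of most of these genes.

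All 10 genes were abundant in the spleen, with raw counts from 2597 (Psmb9) to 90781 (H2-D1) per mouse, so that counting error was at most 2.0% of a value. Compared per length, as CPM (counts scaled to a common library size) per kilobase (kb) of merged exons over the 8 mice, B2m was highest with 1722 ± 88.2 (SD, n = 8). The heavy chains came next, H2-D1 with 911.5 ± 80.6 and H2-K1 with 624.6 ± 76.0 CPM per kb, ranks 27 and 49 among the 16455 tested genes with a length, where B2m was at rank 13. Tapbp followed with 99.7 ± 6.99 CPM per kb. Psmb8 (62.0 ± 6.01), Tap2 (53.8 ± 5.30), Tap1 (52.9 ± 3.64) and Psmb10 (52.2 ± 5.24) were near each other, and each neighbour's range overlapped the next, so that their order is not resolved. Nlrc5 (32.6 ± 3.40) and Psmb9 (24.9 ± 2.41 CPM per kb) were lowest and overlapped each other. B2m, H2-D1, H2-K1 and Tapbp each had a range over the 8 mice that stood apart from both neighbours in the order. Merged exons join the exons of all annotated transcripts of a gene. Such a length, 3660 bases for Psmb9, can exceed that of the main transcript and lower the level per kb, so the order depends on it.

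**Figure D1:**
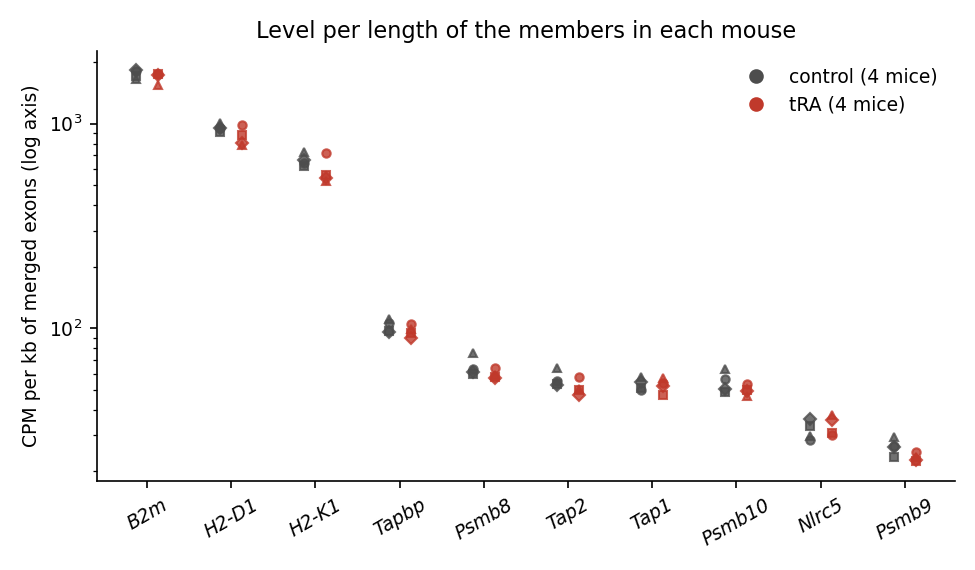
Level of each gene in CPM per kb of merged exons, on a log axis, with a point for each mouse, control mice in grey and tRA mice in red, in descending order of the mean. B2m, H2-D1 and H2-K1 lie well above the other 7 genes, and Psmb8, Tap2, Tap1 and Psmb10 overlap.

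The comparison of the groups addressed whether tRA given before disease alters gene expression in the spleen. For these genes the differences were small and pointed mostly one way: 9 of 10 had a lower fitted level with tRA, with folds of tRA over control from 0.881 (Psmb9) to 0.988 (Tap1), and Nlrc5 alone was higher. None passed the test. Many of the 10 genes varied together over the 8 mice, such as Tap2 with Psmb8 (Pearson r = 0.949), so the directions are not separate results. Not all did, as Nlrc5 with Psmb10 had r = -0.732. The median log2 fold change (tRA over control) of the 10 genes was -0.13, beside 0.0014 for all 16484 genes tested, of which 49.7% were lower with tRA. The median was -0.07 without control mouse 3, whose levels were the highest of the control group for 8 of the 10 genes, and -0.17 without tRA mouse 1. With library size alone as the scaling, 8 of 10 were lower, since Tap1 turned to 0.01.

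In the quasi-likelihood test of edgeR, adjusted by Benjamini and Hochberg over all genes, 0 of the 10 genes had an FDR under 0.1, as did 0 (0.0%) of the genes tested; DESeq2 called 27 and limma-voom 1 of all genes, none of them among the 10. At an unadjusted p under 0.05, 1 of the 10 genes was lower (Psmb9), where 6.49% of the genes tested passed in either direction (1070 genes) and 3.55% as lower. That count changed with the mice and the scaling: it was 4 (H2-K1, H2-D1, Tap2 and Psmb9) without tRA mouse 1, a setting in which the share of all genes also reached 12.6% (2105 of 16683), 0 without control mouse 1, 3 or 4 or without tRA mouse 2, 3 or 4, and 1 without control mouse 2. It was also 0 with library size alone as the scaling. The log2 fold change of Psmb9 was nevertheless between -0.235 and -0.134 with 1 mouse left out, and -0.152 with library size alone. The groups overlapped for all 10 genes, where 1.63% of the genes tested had every tRA mouse below every control mouse. A difference that misses the threshold is not shown to be absent, and with these mice a standard error of a log2 fold change lay between 0.08 and 0.11.

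**Figure D2:**
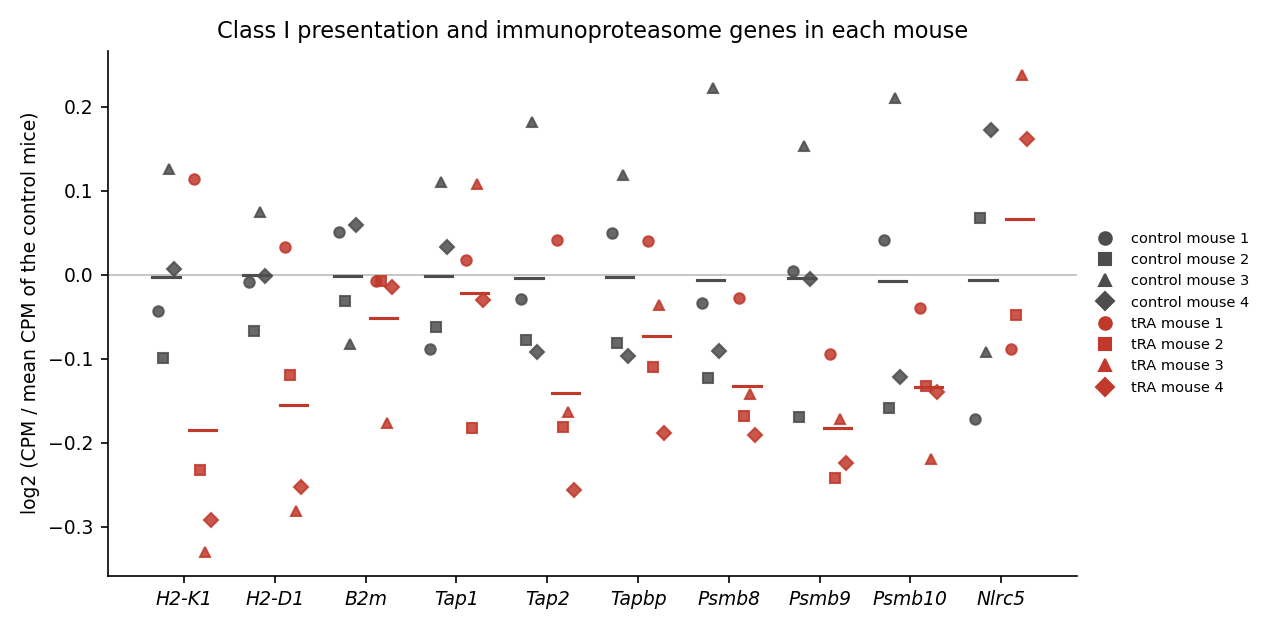
Expression of the 10 genes in each mouse as log2 of CPM over the mean CPM of the 4 control mice, with a marker per mouse and a line at the mean of each group, control in grey and tRA in red. For H2-K1 and H2-D1 the tRA mice 2, 3 and 4 lie below every control mouse and tRA mouse 1 does not, and the groups overlap for every gene.

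H2-K1 and H2-D1 encode the classical heavy chains that hold the peptide. H2-K1 measured 1889, 1816, 2124 and 1955 CPM in control mice 1 to 4 and 2105, 1656, 1548 and 1589 CPM in tRA mice 1 to 4, with CPM scaled by TMM. The tRA mice 2, 3 and 4 were thus below all control mice, while tRA mouse 1 was above 3 of them. The log2 fold change was -0.17 (SE 0.11, FDR = 0.793 in edgeR), -0.28 (unadjusted p under 0.05) without tRA mouse 1, and -0.05 with tRA mice 3 and 4 left out together, a setting chosen after seeing the data, with an FDR between 0.242 and 0.99973 over the 17 alternative settings.

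H2-D1 showed the same arrangement of mice, with 2457, 2360, 2604 and 2469 CPM in the control mice and 2529, 2277, 2035 and 2075 CPM in the tRA mice. Again tRA mouse 1 stood among the control mice and the other tRA mice lay below them. Its log2 fold change was -0.15 (SE 0.09, FDR = 0.792 in edgeR), -0.22 (unadjusted p under 0.05) without tRA mouse 1, and -0.04 without tRA mice 3 and 4, with an FDR between 0.334 and 0.99973 over the alternatives. The heavy chains varied together over the 8 mice (Pearson r = 0.964, the highest of all pairs of the 10 genes, given as a description).

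B2m encodes beta-2 microglobulin, the light chain that every class I molecule needs. It did not share the arrangement of the heavy chains: the control mice had 1559, 1474, 1422 and 1569 CPM and the tRA mice 1498, 1499, 1332 and 1491 CPM. Only tRA mouse 3 was below the control range, and the other tRA mice were inside it. The log2 fold change was -0.05 (SE 0.08, FDR = 0.906 in edgeR). It was -0.01 without tRA mouse 3, -0.03 without control mouse 1 or 4, -0.08 without control mouse 3, -0.01 without tRA mice 3 and 4, and -0.02 with library size alone. Within each mouse, the log2 ratio of the summed heavy chains to B2m, per length, was -0.18, -0.16, 0.07 and -0.17 in the control mice and -0.04, -0.27, -0.24 and -0.37 in the tRA mice. The ratio was thus lower in tRA mice 2, 3 and 4 than in any control mouse, and in tRA mouse 1 higher than in 3 of the 4.

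Tap1 and Tap2 encode the subunits of the peptide transporter, and Tapbp encodes tapasin, which bridges the transporter and the heavy chain. Tap2 measured 208.8, 201.7, 241.6 and 199.7 CPM in the control mice and 219.1, 187.7, 190.1 and 178.2 CPM in the tRA mice. As with the heavy chains, tRA mice 2, 3 and 4 were below all control mice and tRA mouse 1 was among the highest. The log2 fold change of Tap2 was -0.14 (SE 0.09, FDR = 0.793 in edgeR), -0.20 (unadjusted p under 0.05) without tRA mouse 1, -0.08 without control mouse 3, and -0.07 without tRA mice 3 and 4, with an FDR between 0.358 and 0.99973 over the alternatives. Tap1 did not follow its partner. Its levels were 274.1, 279.0, 314.6 and 298.1 CPM in the control mice and 295.0, 256.7, 314.0 and 285.4 CPM in the tRA mice, in overlapping groups, with a log2 fold change of -0.02 (SE 0.08, FDR = 0.977 in edgeR). This value had no stable sign, with 0.03 without tRA mouse 2 and -0.06 without tRA mouse 3 as the extremes with 1 mouse left out. The log2 ratio of Tap1 to Tap2 per length was 0.19 in tRA mouse 3 and 0.15 in tRA mouse 4, above the highest control mouse at 0.04, and inside the control range in tRA mice 1 (-0.10) and 2 (-0.08). Tapbp ranged from 346.4 to 402.0 CPM in the control mice and from 325.3 to 380.9 CPM in the tRA mice, with a log2 fold change of -0.07 (SE 0.08, FDR = 0.871). That value was -0.04 without control mouse 3, -0.03 without tRA mouse 4 or without tRA mice 3 and 4, -0.04 with library size alone, and -0.11 without tRA mouse 1.

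Psmb8, Psmb9 and Psmb10 encode the catalytic subunits of the immunoproteasome, which take the places of Psmb5, Psmb6 and Psmb7. Psmb9 measured 97.0, 86.0, 107.6 and 96.4 CPM in the control mice and 90.6, 81.8, 85.9 and 82.8 CPM in the tRA mice. Here too tRA mice 2, 3 and 4 were below every control mouse, by little for tRA mouse 3 beside control mouse 2, and tRA mouse 1 was inside the control range. The log2 fold change was -0.18 (SE 0.08, FDR = 0.757 in edgeR, lower in 4 of 4 tRA mice than the control mean). It lay between -0.235 and -0.134 over the 17 alternative settings, 9 of which had an unadjusted p under 0.05. Psmb8 measured 213.9, 201.1, 255.5 and 205.6 CPM in the control mice and 214.8, 195.0, 198.5 and 191.9 CPM in the tRA mice, with a log2 fold change of -0.13 (SE 0.08, FDR = 0.793). Control mouse 3 stood above the rest, and the log2 fold change was -0.055 without it. Again tRA mice 2, 3 and 4 were below every control mouse while tRA mouse 1 was not. Psmb10 measured 95.7, 83.3, 107.5 and 85.5 CPM in the control mice and 90.4, 84.8, 79.9 and 84.4 CPM in the tRA mice, with a log2 fold change of -0.13 (SE 0.09, FDR = 0.793). Its control mice 2 and 4 were at the level of the tRA mice, and the log2 fold change was -0.06 without control mouse 3 and -0.09 without tRA mice 3 and 4.

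The constitutive catalytic subunits also had lower levels with tRA, and the ratios of immunoproteasome to constitutive subunits overlapped between the groups. The 3 tested constitutive subunits were all lower with tRA (median log2 fold change -0.25), 0 at an FDR under 0.1 and 1 at an unadjusted p under 0.05, and Psmb11, a subunit known from the thymus, was too low to test. Psmb6, which was also the highest of them per length, had 89.5 ± 5.66 CPM in control and 74.5 ± 9.82 CPM in tRA mice (SD, n = 4 each; log2 fold change -0.26, FDR = 0.757 in edgeR). The log2 ratio of Psmb8 to Psmb5 per length was 2.06 ± 0.16 in control and 2.19 ± 0.14 in tRA mice, with overlapping groups. That of Psmb9 to Psmb6 was -0.86 ± 0.12 and -0.77 ± 0.18, and that of Psmb10 to Psmb7 was 2.71 ± 0.14 and 2.68 ± 0.05, both overlapping. The immunoproteasome subunit was thus above its constitutive counterpart per length in every mouse for Psmb8 and Psmb10, and below it in every mouse for Psmb9. Without division by length, Psmb9 had a higher mean CPM than Psmb6. The values were 96.7 and 89.5 in control mice and 85.25 and 74.5 in tRA mice. Which of this pair is higher thus depends on the merged exon lengths, which are not lengths of single transcripts.

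Other proteasome genes leaned the same way. Of the 11 further subunits of the 20S core, 10 were lower with tRA (median log2 fold change -0.17, 0 at an FDR under 0.1, 2 at an unadjusted p under 0.05). These were Psmb4 (81.2 ± 10.2 CPM in control and 67.0 ± 10.7 in tRA mice, log2 fold change -0.28) and Psmb3 (62.8 ± 5.45 and 55.7 ± 3.09 CPM, -0.17), each with an FDR of 0.757 in edgeR, while Psmb2, the highest per length, had -0.06. Of 10 proteasome activator and assembly genes, 8 were lower (7 with library size alone; median -0.17, 0 at an FDR under 0.1, 1 at an unadjusted p under 0.05). Psme1, an activator subunit induced by interferon gamma and the highest of them per length, had 207.0, 188.4, 246.9 and 203.4 CPM in the control mice and 203.1, 182.2, 182.2 and 173.8 CPM in the tRA mice (log2 fold change -0.19). Pomp, the assembly chaperone, had 60.2 ± 9.16 and 49.5 ± 4.58 CPM (-0.28, FDR = 0.757 in edgeR).

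Nlrc5, the transactivator of class I genes, was the member with a positive difference. It measured 239.8, 282.9, 253.4 and 304.3 CPM in the control mice and 254.1, 261.2, 318.6 and 302.0 CPM in the tRA mice. The highest value was that of tRA mouse 3, in which H2-K1, H2-D1 and B2m were lowest, and the groups overlapped throughout. The log2 fold change was 0.07 (SE 0.10, FDR = 0.891 in edgeR), -0.07 without tRA mice 3 and 4, and between 0.01 (without tRA mouse 3) and 0.13 (without control mouse 4) with 1 mouse left out. Over the 8 mice Nlrc5 ran opposite to Psmb10 (Pearson r = -0.73) and H2-D1 (r = -0.70), the lowest values among the pairs of the 10 genes, as a description over 8 mice with no test.

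Among 22 other regulators of class I transcription, such as the interferon receptors, the JAK and STAT proteins and the factors of the RFX and NF-Y complexes, 10 were lower and 12 higher (7 and 15 with library size alone). Their median log2 fold change was 0.03, 0 had an FDR under 0.1 and 0 an unadjusted p under 0.05; Jak1 was the highest per length, with 696.5 ± 65.9 CPM in control and 728.9 ± 43.8 CPM in tRA mice. Of 18 genes of the interferon gamma response, 7 were lower and 11 higher (median 0.06, 0 at an FDR under 0.1, 2 at an unadjusted p under 0.05), and Gbp9, the highest per length, had a log2 fold change of -0.02. Ifng, the cytokine itself, had 15.8, 14.9, 17.9 and 14.1 CPM in the control mice and 15.2, 10.6, 7.76 and 9.20 CPM in the tRA mice (log2 fold change -0.55, FDR = 0.757 in edgeR). Ifng repeats the arrangement of the heavy chains, with tRA mouse 1 among the control mice and the other tRA mice below them. Cxcl9, a chemokine gene induced by interferon gamma, had 6.55 ± 0.72 CPM in control and 5.11 ± 0.65 CPM in tRA mice (-0.36, FDR = 0.757), with overlapping groups.

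Of 16 class I-like chains, 12 were lower with tRA (11 with library size alone; median log2 fold change -0.14, 0 at an FDR under 0.1, 2 at an unadjusted p under 0.05). H2-Q6, the highest of them per length, had 450.7, 440.7, 552.7 and 502.1 CPM in the control mice and 586.9, 406.4, 382.0 and 351.4 CPM in the tRA mice. As for H2-K1, tRA mice 2, 3 and 4 were below every control mouse, and tRA mouse 1 was here the highest of all 8. H2-M3, which presents formylated peptides, had 65.9, 63.1, 65.2 and 68.3 CPM in the control mice and 61.4, 60.7, 58.5 and 55.8 CPM in the tRA mice (-0.15, FDR = 0.757 in edgeR). Its groups did not overlap, a pattern found as lower in 1.63% of the genes tested. H2-Q1 had 24.7 ± 3.16 and 19.9 ± 3.97 CPM (-0.31, FDR = 0.757).

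Genes that trim peptides or help to load them did not lean that way. Of 13, 5 were lower and 8 higher (4 and 9 with library size alone; median log2 fold change 0.03, 0 at an FDR under 0.1, 1 at an unadjusted p under 0.05). Calr, the calreticulin chaperone and the highest per length, had 768.1 ± 12.9 CPM in control and 780.1 ± 92.0 CPM in tRA mice. Erap1, the aminopeptidase that shortens peptides in the endoplasmic reticulum, had 84.6 ± 4.17 and 95.3 ± 8.12 CPM (0.17, FDR = 0.757 in edgeR), higher in tRA mice 2, 3 and 4 than in any control mouse. Of the 13 receptors and coreceptors that bind class I, 10 were tested and Klra4, Klra6 and Klra8 were too low. Their median was 0.10 with 2 lower, 0 had an unadjusted p under 0.05, and Cd8b1, the highest per length, had 129.8 ± 24.8 and 139.9 ± 18.7 CPM.

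MHC class II presentation genes were also mostly lower, 8 of 9 with a median log2 fold change of -0.16 (0 at an FDR under 0.1). Cd74, the invariant chain and the highest per length, had 6937 ± 253.1 CPM in control and 6208 ± 442.0 CPM in tRA mice, without overlap (-0.16), where 1.63% of the genes tested had every tRA mouse lower. H2-Ob, named after its values were seen, was the exception to the direction, with 414.4 ± 28.6 and 457.5 ± 11.2 CPM and no overlap either (0.14), where 1.91% of the genes tested had every tRA mouse higher. H2-Oa (-0.16) and H2-Aa (-0.25) passed an unadjusted p under 0.05, and each had an FDR of 0.757 in edgeR. Of the 6 retinoid receptor genes, Rxrg was too low to test, while 2 of the remaining 5 were lower and 3 higher (median 0.01). Rara, the highest of them per length, had 129.0 ± 11.6 and 136.3 ± 7.25 CPM, and Rxrb, whose protein was first cloned through its binding to a class I promoter, had a log2 fold change of -0.04.

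The makeup and handling of the cells can move with such values, and in bulk RNA fewer cells of a type and less RNA per cell cannot be told apart. Immediate early and heat shock genes, which respond to the handling of tissue among other stimuli, were lower with tRA for 15 of 15 (in edgeR 5 at an unadjusted p under 0.05 and 0 at an FDR under 0.1; DESeq2 called 2, Jun and Egr1, and limma-voom 0). Their summed level was 20660, 19730, 20430 and 17540 CPM in the control mice and 19280, 15660, 7475 and 10120 CPM in the tRA mice, with none at 0. Over the 8 mice Fos was the most abundant (3184 CPM in control and 2216 CPM in tRA mice on average), although Fosb was above it in control mice (3319 CPM). The sum placed tRA mouse 1 among the control mice and tRA mice 2, 3 and 4 below them, as did H2-K1, H2-D1, Tap2, Psmb8, Psmb9 and Ifng. The members B2m, Tap1, Tapbp, Psmb10 and Nlrc5 did not. This arrangement was noted after the values were seen, and its share among all genes tested was not counted. The 5 genes at an unadjusted p under 0.05, named after their values were seen, had another arrangement, since tRA mouse 1 was also below every control mouse: Fosb (2842 CPM beside a control minimum of 2851), Jun (2094 and 2122), Egr1 (624.2 and 730.9) and the heat shock genes Hspa1a (127.1 and 316.8) and Hspa1b (275.5 and 764.4). In all of these but Hspa1b the groups did not overlap, which makes 4 of the 15 genes of the list, beside 1.63% of the genes tested. The 5 genes were picked by their p, so their own share is no test. Among the other genes of the list, tRA mouse 1 was above every control mouse for Fos, Egr2, Ier2, Dusp1, Nr4a1, Atf3, Zfp36 and Btg2. For Nr4a1 it had 1680 CPM, beside a control maximum of 1150. It was inside the control range for Junb and Ier3. With tRA mice 3 and 4 left out together, the median log2 fold change of the 10 members was -0.07. These mice were also the lowest for H2-K1 and H2-D1, so the value says nothing about this list. The median was -0.07 as well without control mouse 3 alone. The part of these genes in the differences of the class I genes was not tested.

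Neutrophil markers were lower for 11 of 11 genes (in edgeR 10 at an unadjusted p under 0.05 and 0 at an FDR under 0.1; DESeq2 called 4, Camp, Ngp, Ltf and Lcn2, and limma-voom 1, Camp), with summed levels of 883.3, 1136, 1148 and 990.9 CPM in the control mice and 502.8, 546.7, 528.7 and 848.2 CPM in the tRA mice. Ngp was the most abundant over the 8 mice, although S100a9 was above it in tRA mice (188.8 and 171.2 CPM), none was at 0, and tRA mouse 1 was the lowest, unlike in the class I genes. Plasma cell markers, led by Jchain, were lower for 4 of 7, of which 3 (Jchain, Mzb1 and Tnfrsf17) had an unadjusted p under 0.05 and 0 an FDR under 0.1 in edgeR, and 3 of 7 (Sdc1, Tnfrsf17 and Mzb1) had every tRA mouse below every control mouse, as did 1.63% of the genes tested. They had sums of 1071, 1026, 1044 and 1230 CPM in the control mice and 944.5, 1071, 810.4 and 820.9 CPM in the tRA mice. The part of either list in the class I values was not tested.

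The summed markers of the larger populations of the spleen overlapped between the groups. B cell markers, led by Cd79a, summed to 6211 ± 476.9 CPM in control and 6212 ± 94.1 CPM in tRA mice, and T cell markers, led by Lck, to 1754 ± 178.5 and 1840 ± 46.4 CPM. The defining markers of the labelled tissue were thus present in every mouse. NK cell markers summed to 394.0 ± 81.7 and 385.7 ± 20.96 CPM, monocyte and macrophage markers to 1347 ± 275.0 and 1371 ± 155.4 CPM, and dendritic cell markers to 175.1 ± 32.5 and 166.1 ± 24.7 CPM. Platelet markers (7.84 ± 0.58 and 6.97 ± 0.61 CPM) were low, and markers of stroma and endothelium summed to 250.4 ± 6.43 and 251.2 ± 6.67 CPM. Erythroid markers varied widely in both groups, from 501.1 to 2415 CPM in control and from 599.8 to 3581 CPM in tRA mice. None of these lists had a gene at an FDR under 0.1 in edgeR, DESeq2 or limma-voom, and 1 gene had an unadjusted p under 0.05 in edgeR, the dendritic cell marker Cd209a (log2 fold change 0.27). T cell markers were higher with tRA for 6 of 8 (median 0.118), B cell markers for 4 of 7 (0.00445), NK cell markers for 2 of 7 (-0.0461), monocyte and macrophage markers for 4 of 12 (-0.0304), dendritic cell markers for 2 of 7 (-0.0899), erythroid markers for 6 of 8 (0.345), platelet markers for 1 of 4 tested (-0.23) and markers of stroma and endothelium for 4 of 6 (0.0144). With library size alone, 6 of the 12 monocyte and macrophage markers were lower, and their median turned to 0.00455.

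The genes outside the members whose levels were most like theirs were found among 8764 protein-coding genes with a mean of at least 10 CPM, by Pearson r over the 8 mice with the mean of the standardised log2 CPM of the 10 members. They were Ppp1r8 (r = 0.981), Psme1 (0.975), Psme2 (0.974), Slc7a6os (0.972) and Atp5h (0.969). These are the highest values of many and carry no test. The profile they match was highest in control mouse 3 (1.15) and lowest in tRA mice 2 (-0.69) and 4 (-0.68), while tRA mouse 1 (0.39) was above 3 of the 4 control mice.

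Positions on GRCm38 place 7 of the 10 genes in the MHC of chromosome 17. Psmb9 (34181987 to 34187764, minus strand), Tap1 (34187553 to 34197225, plus strand), Psmb8 (34197721 to 34201454) and Tap2 (34203527 to 34216321) lie within 34.3 kb. Tapbp (33915899 to 33929292) and H2-K1 (33996017 to 34000347, minus strand) lie before them, and H2-D1 (35262730 to 35267499) lies beyond. B2m is on chromosome 2 (122147686 to 122153083), and Psmb10 (105935735 to 105938444, minus strand) and Nlrc5 (94434356 to 94527272) are on chromosome 8. Tap1 and Psmb9 are read in opposite directions, share 212 bases of their gene bounds, and their promoter windows share 225 of 250 bases. The log2 ratio of Tap1 to Psmb9 per length was 0.92, 1.12, 0.97 and 1.05 in the control mice and 1.12, 1.07, 1.29 and 1.20 in the tRA mice, with overlapping groups.

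Promoter windows of 250 bases before the gene start were available from RefSeq (GRCm38.p6) for 8 of the 10 genes; Tap2 and Nlrc5 have no entry. The windows of H2-D1, Tap1, Tapbp, Psmb8 and Psmb9 lie wholly within exons that GENCODE annotates, of the gene itself or of a neighbour, so they are not outside transcribed sequence. They were searched on both strands for GAAANNGAA (the interferon response element, in 7.13% of the 32851 windows of all genes), GGGNNTTCC (NF-kB, 4.98%), TTCNNNGAA (the interferon gamma activated site, 7.02%), TGACG (17.8%) and CCAAT (33.8%), the cores of the X2 and Y boxes to which the factors that recruit NLRC5 bind, and AGGTCA (a retinoid receptor half-site, of which a full element has a pair, 14.0%). H2-K1 and H2-D1 each hold the retinoid receptor half-site, the NF-kB motif, the X2 core and the Y core in this order toward the gene, and a run of 47 bases with the retinoid receptor half-site and the NF-kB motif is identical between the windows. It lies at -141 to -95 in H2-K1 and at -201 to -155 in H2-D1. H2-D1 holds a further Y core at -53 to -49, which the H2-K1 window lacks; another RefSeq window of H2-K1, which ends nearer the gene, holds one at -6 to -2. B2m holds a match to GAAANNGAA, the X2 core and the Y core. Only the exact letters above were searched. A window without a match, such as that of H2-K1 for GAAANNGAA, can still hold a variant of the interferon response element.

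In H2-K1, H2-D1 and B2m, TGACG is followed by ATTGG, the reverse complement of CCAAT, with 20 bases between them. This spacing, chosen after the matches in H2-K1 were seen, occurs in 30 of the 32851 windows (0.0913%), whereas both motifs at any distance occur in 6.12%. In their overlapping windows Tap1 and Psmb9 share a single X2 core and a single Y core in another arrangement, the same sites read from opposite strands, Tapbp holds the Y core alone, Psmb8 holds the interferon gamma activated site, and Psmb10 holds a single retinoid receptor half-site. A match describes the letters of the C57BL/6J reference and is no measured binding site. The windows of H2-K1 and B2m are shown because the chains they encode pair with each other yet differed in their arrangement over the mice, with all motif matches in capitals and both sequences in the direction of the gene. H2-K1 is at chr17:34000348-34000597 (minus strand) and B2m at chr2:122147437-122147685 (plus strand).
H2-K1: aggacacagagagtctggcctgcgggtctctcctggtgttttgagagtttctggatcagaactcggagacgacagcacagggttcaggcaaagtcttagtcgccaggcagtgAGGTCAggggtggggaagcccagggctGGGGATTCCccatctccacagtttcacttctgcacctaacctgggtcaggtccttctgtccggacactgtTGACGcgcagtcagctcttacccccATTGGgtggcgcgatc
B2m: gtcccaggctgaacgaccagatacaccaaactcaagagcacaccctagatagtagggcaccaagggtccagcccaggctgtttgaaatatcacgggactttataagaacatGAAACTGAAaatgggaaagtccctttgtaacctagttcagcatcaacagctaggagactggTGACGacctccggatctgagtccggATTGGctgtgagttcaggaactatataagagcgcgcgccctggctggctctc

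**Figure D3:**
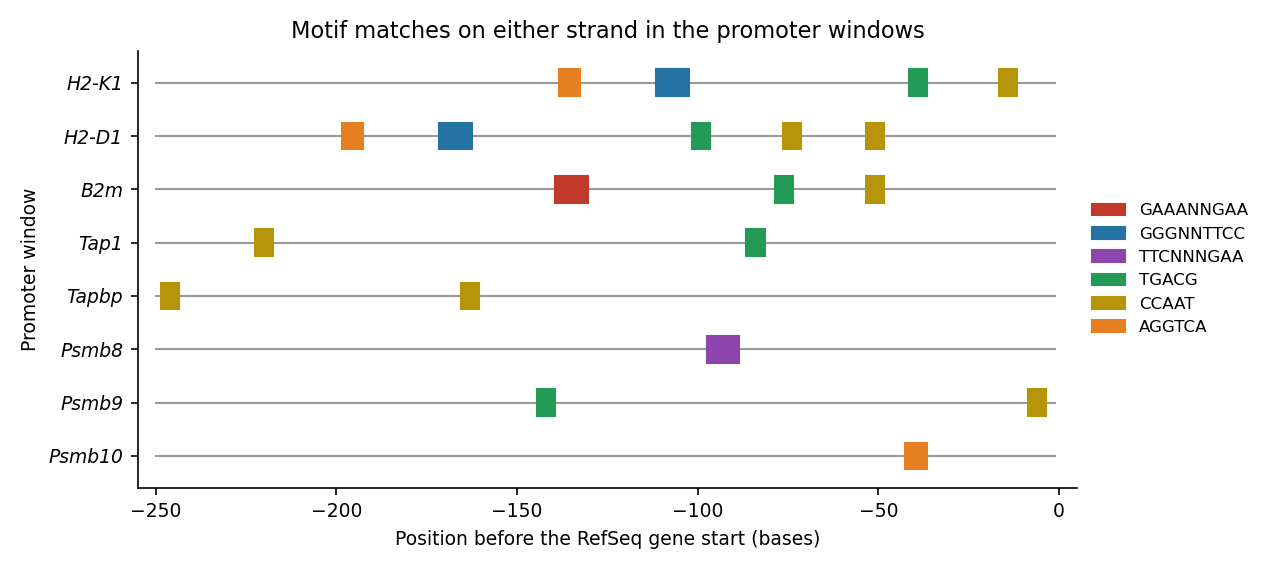
Motif matches on either strand in the 250 bases before the RefSeq gene start of 8 genes, with the position before the start in bases on the horizontal axis, a line for each gene and a colored box for each match. H2-K1 and H2-D1 show the retinoid receptor half-site, the NF-kB motif and the X2 and Y cores in the same order, and H2-K1, H2-D1 and B2m have the X2 and Y cores at the same distance.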

How the data were processed

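Raw counts per gene were deposited by the authors for each of the 8 mice, without normalization. The study's methods name Bowtie2 and Tophat2 for alignment and HTSeq for counting, whereas the submitters' processing notes name STAR 2.5.2b, featureCounts 1.5.1, DESeq2 1.26.0 and GRCm38; whether counting used the strand is not given in the sources used here. The libraries were made with the TruSeq v2 kit from RNA of integrity scores above 8 and sequenced on a HiSeq2500. A table of the authors' DESeq2 comparison (mean counts, fold changes, p-values) was not used. Symbols, positions and merged exon lengths came from GENCODE M21 (GRCm38), which holds 51633 of the 51826 identifiers. In R 4.3.3, edgeR 4.0.16 filtered genes (filterByExpr, minimum count 10), normalized by TMM and tested 16484 genes by the quasi-likelihood test on 8 libraries. The fits were tested on simulated data. Alternatives used DESeq2 1.42.0, limma 3.58.1, RLE, library size alone, no filter, at least 10 counts in every library, robust empirical Bayes, a replicate block, each mouse left out, and tRA mice 3 and 4 left out together (chosen after seeing the data). Figures were drawn with matplotlib 3.10.9.

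The members and the gene lists were chosen with earlier results of these data known. Named genes were the 10 members, the gene highest per length and up to 4 genes at the lowest unadjusted p under 0.05 in each related list, and the 5 genes most like the members; marker lists are given by their sum and most abundant gene. Rxrb, H2-Ob and all other genes named from the marker lists and from the immediate early and heat shock list were added after their values were seen. Symbols that GENCODE lists under another name were matched through RefSeq synonyms. Gene lists were described by counts, medians and sums, with no test of a list. The ratios of heavy chains to B2m, Tap1 to Tap2 and Tap1 to Psmb9 were added to the planned subunit ratios after the values were seen.

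BALB/c mice carry other class I alleles than the C57BL/6J reference, and a further heavy chain, H2-L, so the class I levels are uncertain. Class I genes resemble one another in part: 3.59% of the 100-base stretches of H2-D1 transcripts and 0.957% of those of H2-K1 occur in transcripts of other genes, and 12.8% and 9.63% of the 50-base stretches. If strand was not used in counting, reads from B2m, Tap2, Tapbp, Psmb8, Psmb10 and Nlrc5 cannot be told apart from those of opposite-strand genes that overlap them, nor can those of Tap1 and Psmb9 where these overlap each other. The gene opposite B2m is Patl2, and Tapbp also overlaps Zbtb22 on its own strand. Of the 100-base stretches, 14.8% of Tapbp and 8.05% of Psmb8 occur in transcripts of other genes.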

Additional observations from a re-analysis of the deposited data

Results flagged for a closer look

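In 5 of 74 groups of 4 mice, the highest or lowest mouse stood far from its nearest neighbour by Dixon's 95% criterion, which compares that gap with the group's whole range; chance alone marks about 5% of such groups. For B2m, tRA mouse 3 was far below the other tRA mice (1332 CPM beside 1491 to 1499, a gap of 0.956 of the range). In the log2 ratio of the heavy chains to B2m, control mouse 3 (0.07) was far above the other control mice (0.903 of the range). In the ratio of Psmb8 to Psmb5, control mouse 1 (1.82) was far below the others (0.855). Among marker sums, tRA mouse 4 was the lowest of its group for B cells (6071 CPM, 0.915 of the range) and the highest for neutrophils (848.2 CPM, 0.84).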

How the results depend on the processing

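Over 17 alternative settings, 166 of 170 values of the 10 genes kept their sign and their side of an FDR of 0.1, and none passed it (lowest FDR 0.242). The other 4 changed sign: Tap1 was 0.0132 with library size alone, 0.0139 without control mouse 3 and 0.0307 without tRA mouse 2 (its range with 1 mouse left out was -0.0638 to 0.0307), and Nlrc5 was -0.0697 without tRA mice 3 and 4. The cause was not tested. Members with a positive log2 fold change numbered 1, but 2 with library size alone and 0 without tRA mice 3 and 4 (chosen after seeing the data), and between 1 and 2 with 1 mouse left out. Genes called over all genes numbered 27 with DESeq2 and 6 without the filter, both over 29817 genes, 1 with limma-voom, 3 without tRA mice 3 and 4, and between 0 and 3 with 1 mouse left out. The median of the members ranged from -0.17 to -0.07 with 1 mouse left out.

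With the replicate number as a block (replicate block), 0 genes were called over all genes, 0 members were called, and the median of the members was -0.13 with 1 positive. Same-numbered mice correlated at 0.157, -0.0229, -0.014 and 0.259 in their deviations from the group means. Mice of different numbers were not compared in this way, so whether same-numbered mice shared a litter or a day was not tested. Depth was similar in all mice, and at these counts the spread between mice, not counting error, limits the precision.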
